A study of Homo sapiens with 3 samples.

Results

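The mitochondrial ribosomal proteins studied here are the products of the 75 genes whose symbols are MRPL or MRPS followed by digits and an optional letter, of 22613 genes listed per library; pseudogene rows were left out. By symbol, 47 belong to the large subunit (MRPL) and 28 to the small subunit (MRPS). Every one had a mean of at least 1 FPKM (fragments per kilobase of transcript, scaled to the mapped fragments of the library) over the 3 libraries, so all 75 passed the filter on low values and entered the test. The question asked of them is how their transcripts differ in LNCaP-abl cells, a prostate cancer line derived from LNCaP that grows without androgen, once the transcription factor E2F1 has been silenced. RNA was taken 72 h after a lipid reagent had delivered pooled siRNAs to E2F1 (siE2F1, 1 library) or control siRNAs (2 libraries, numbered 0 and 1 in the labels). All 3 libraries came from LNCaP-abl at passages 53 to 60, grown without phenol red in serum stripped with charcoal. The siE2F1 value thus has no replicate, and nothing in the labels tells if separate cultures gave the controls, so p-values measure only the spread between the 2 controls, which may be technical.

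Mitochondria carry their own ribosome, which translates the few respiratory chain proteins encoded by mitochondrial DNA. Its RNAs come from that DNA, but its proteins are encoded in the nucleus, made in the cytosol and imported, so each mitoribosome depends on many nuclear genes being expressed together. The small subunit reads the messenger RNA and the large subunit joins the amino acids and releases the chain at the inner membrane. Some of the proteins have counterparts in bacterial ribosomes, and others were added in mitochondria. E2F1 binds DNA with a DP partner and activates genes of the cell cycle.

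The E2F1 transcript, the target of the siRNAs, stood at 1.68 FPKM in siE2F1 and at 10.61 and 10.63 FPKM in control 0 and control 1 (log2 fold change -2.12, SE 0.0605, limma adjusted p = 0.0311). That call was lost with a pseudocount of 0.1 FPKM and with no filter on low values, where the adjusted p was 0.0601 and 0.159. Of 9 luminal prostate markers of LNCaP cells, 7 had a mean of at least 1 FPKM, with a summed level of 885 FPKM in siE2F1 and of 812 and 825 FPKM in the controls; KLK2 and KLK3 were below that mean. The basal marker KRT14 was listed at 0 in each library. The 2 leukocyte markers summed to 6.09 FPKM in siE2F1 and to 6.31 and 6.44 FPKM in the controls, nearly all of it CD68. Neuroendocrine markers, carried by ENO2, summed to 32.7 FPKM in siE2F1 and to 47.8 and 45.8 FPKM in the controls. The part of these markers in the results was not tested. Depth is unknown, since the files hold no read counts.

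Promoter windows are shown for the 2 members furthest below the controls (MRPL45 and MRPS36), for MRPL30 and MRPL32, which lay among those furthest above them, and for MRPL27, whose start lies beside that of a gene on the other strand. Each window runs from 250 bases before to 50 bases after the gene's start, as 300 bases read 5′ to 3′ along the gene, from RefSeq on build GRCh38.p14. The files name hg19 as their build and give no coordinates, so these positions serve only to place the sequences. MRPL45 lies at chr17:38296918-38297217 on the plus strand, MRPS36 (now named KGD4 in RefSeq) at chr5:69217510-69217809 on the plus strand and MRPL30 at chr2:99180934-99181233 on the plus strand. MRPL32 lies at chr7:42932126-42932425 on the plus strand and MRPL27 at chr17:50373135-50373434 on the minus strand. Capitals mark matches, on either strand, to the 5 motifs spelled out further on. Each window shown holds a match, which is not typical of the extreme members. MRPS14, with a higher fold change than MRPL32, and MRPL12 and MRPL48, the next lowest after MRPS36, had no match and are not shown.
MRPL45: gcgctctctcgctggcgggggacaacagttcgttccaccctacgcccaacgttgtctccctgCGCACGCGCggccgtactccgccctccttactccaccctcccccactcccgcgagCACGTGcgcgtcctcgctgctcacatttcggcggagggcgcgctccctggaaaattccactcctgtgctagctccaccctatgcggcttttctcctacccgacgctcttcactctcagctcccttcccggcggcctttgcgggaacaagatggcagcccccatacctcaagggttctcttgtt
MRPS36: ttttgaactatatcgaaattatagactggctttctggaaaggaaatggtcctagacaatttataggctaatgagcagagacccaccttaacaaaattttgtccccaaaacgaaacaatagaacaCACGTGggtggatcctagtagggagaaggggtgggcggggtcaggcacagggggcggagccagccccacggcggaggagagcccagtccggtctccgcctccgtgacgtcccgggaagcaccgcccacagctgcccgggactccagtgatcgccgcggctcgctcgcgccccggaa
MRPL30: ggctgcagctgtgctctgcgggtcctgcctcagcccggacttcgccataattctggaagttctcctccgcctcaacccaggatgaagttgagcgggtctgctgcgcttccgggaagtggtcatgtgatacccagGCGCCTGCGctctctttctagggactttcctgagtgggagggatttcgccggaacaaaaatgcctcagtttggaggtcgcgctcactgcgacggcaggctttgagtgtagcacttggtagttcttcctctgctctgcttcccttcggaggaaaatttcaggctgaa
MRPL32: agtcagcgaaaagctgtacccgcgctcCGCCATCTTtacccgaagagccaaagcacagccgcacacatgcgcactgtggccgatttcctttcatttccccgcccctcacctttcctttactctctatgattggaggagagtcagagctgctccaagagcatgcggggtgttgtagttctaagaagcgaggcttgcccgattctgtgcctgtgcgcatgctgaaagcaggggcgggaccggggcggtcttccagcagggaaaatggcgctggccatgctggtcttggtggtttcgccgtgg
MRPL27: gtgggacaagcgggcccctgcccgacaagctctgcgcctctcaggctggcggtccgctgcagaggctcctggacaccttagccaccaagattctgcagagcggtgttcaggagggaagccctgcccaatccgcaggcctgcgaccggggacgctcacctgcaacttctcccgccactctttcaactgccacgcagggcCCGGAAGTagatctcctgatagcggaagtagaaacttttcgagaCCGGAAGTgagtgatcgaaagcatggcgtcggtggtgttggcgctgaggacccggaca
In these windows the capitals are an NRF1 match and then an E-box in MRPL45, an E-box in MRPS36, an NRF1 match in MRPL30, a YY1 match on the reverse strand in MRPL32 and a pair of ETS matches in MRPL27.

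More mitochondrial ribosomal protein transcripts lay below both controls in siE2F1 than above both, and 0 of the 75 passed limma over the whole table. The median log2 fold change of the 75 members, siE2F1 against control on the log2(FPKM + 1) scale used throughout, was -0.03, against 0.01 over all 14401 genes tested. The siE2F1 library was lowest for 38 members (50.7%), where 39.7% of all genes tested lay below both controls. It was highest for 19 members (25.3%), where 43.7% of all genes lay above both, and it lay between the controls for 18. Control 1 was above control 0 for 63 members (84.0%), against 50.6% of all genes, with a median difference of 0.07 between the controls. Set against control 0 alone the median of siE2F1 was -0.02, and against control 1 alone it was -0.09. With control 0 as the only control, 39 members lay below it and 36 above it, a nearly even split. With control 1 as the only control, 55 lay below it and 20 above it. The 38 members below both controls were thus nearly as many as the 39 below control 0 alone. The 19 above both were nearly as many as the 20 above control 1 alone. Shares of all genes against a single control were not counted. The median size of the difference, whatever its sign, was 0.10 log2 units between siE2F1 and the control mean and 0.08 between the controls, against 0.18 and 0.08 over all genes tested. The quartiles of the members' log2 fold changes were -0.17 and 0.04 and the extremes -0.65 and 0.33. Beyond the controls by more than the gap between them, 27 members lay lower and 11 higher, which makes 38 (50.7%, against 59.5% of all genes), where the rule took 29.1% of all genes lower and 30.4% higher.

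**Figure D1:**
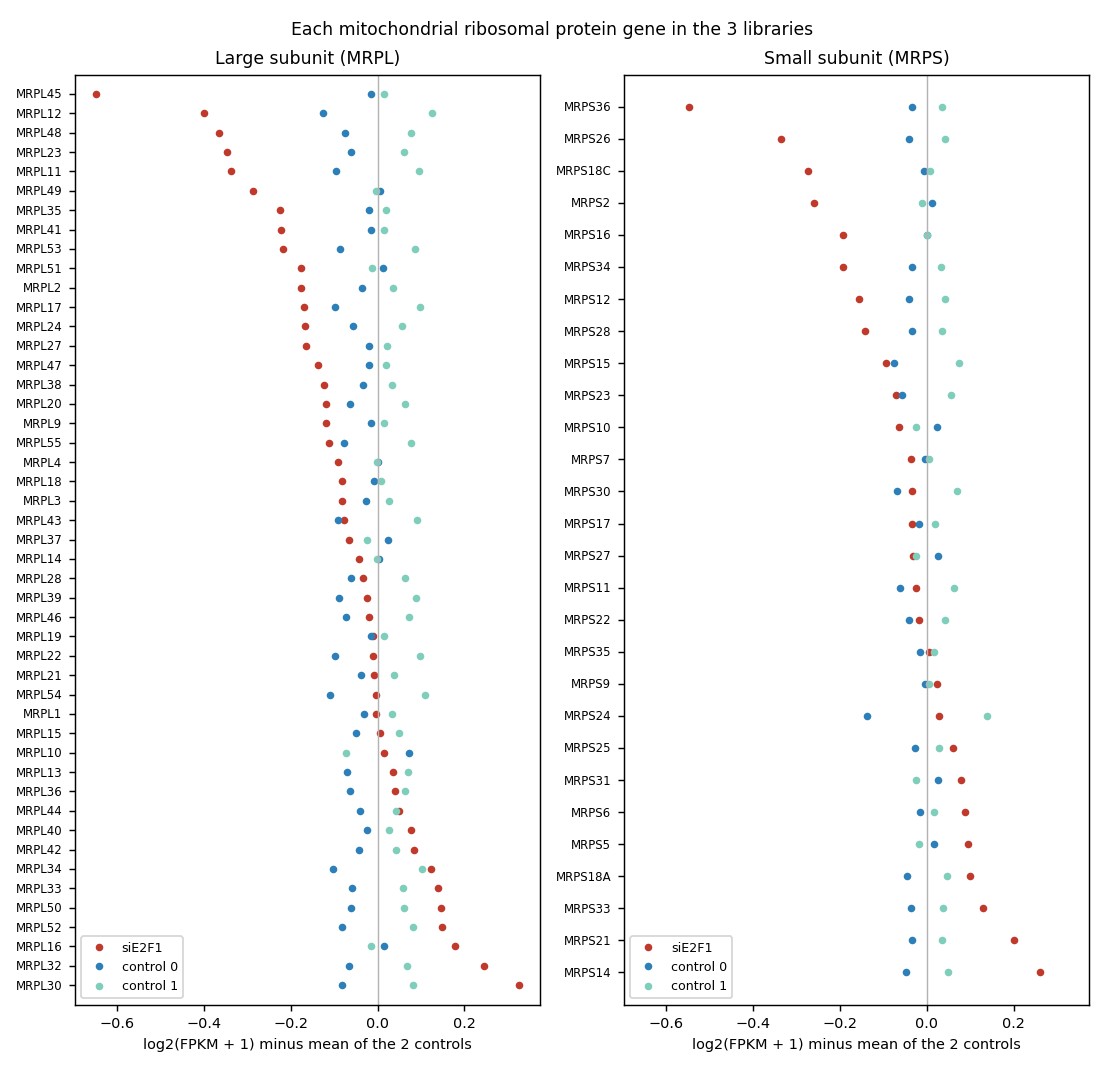
Each row is 1 member; points give its log2(FPKM + 1) in siE2F1 (red), control 0 (dark blue) and control 1 (light green), minus the mean of the 2 controls. The siE2F1 points run from -0.65 for MRPL45 to 0.33 for MRPL30, and control 1 lies right of control 0 in 63 of 75 rows.

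By limma over all 14401 genes tested, 0 of the 75 members passed an adjusted p of 0.05, lower or higher; the background was 0.104% of genes called lower and 0.312% called higher. The adjusted p of the members ran from 0.111 to 0.988, and 10 of them had an unadjusted p under 0.05, against 28.4% of all genes. The fit's prior degrees of freedom were 1.688 with small RNA genes and 3.193 once these were left out. Without them 2 members were called lower and 0 higher, where 6.36% of 13928 genes were called lower and 4.17% higher, and 14 members had an unadjusted p under 0.05, against 33.4% of genes. By size, 2 members lay at least 0.3 log2 units below both controls, against 11.6% of all genes, and 0 lay that far above both, against 10.1%. The 2 called and the 2 set apart by size are the same genes, MRPL45 and MRPS36. With FPKM rescaled so that genes other than small RNA genes had equal totals per library, the size rule took 4 members below. Against control 1 alone it took 8. The share of all genes taken under these settings was not counted.

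**Figure D2:**
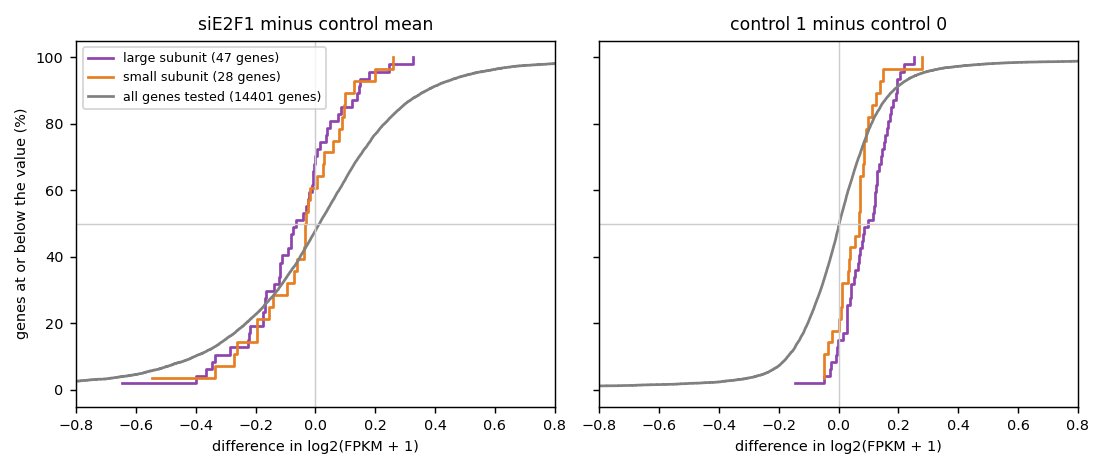
Cumulative share of genes by difference in log2(FPKM + 1), for siE2F1 minus the control mean (left) and for control 1 minus control 0 (right), in large subunit members, small subunit members and all genes tested. On the left both subunit curves are steeper than that of all genes and cross 50% at -0.07 and -0.03; on the right they cross it at 0.10 and 0.07.

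MRPL45 showed the largest difference of the 75. Its protein sits at the exit of the large subunit's tunnel and attaches the ribosome to the inner membrane. It stood at 18.87 FPKM in siE2F1, against 29.85 FPKM in control 0 and 30.46 FPKM in control 1. The siE2F1 library was well below a pair of controls that nearly coincided. Its level was 0.626 times the control mean (log2 fold change -0.65, SE 0.0612). The limma adjusted p was 0.111 in the whole table and 0.0350 without small RNA genes. RefSeq lists 2 pseudogenes of MRPL45, which can share its reads. Of these, MRPL45P2 stood at 5.314 FPKM in siE2F1 and at 6.416 and 6.957 FPKM in the controls (log2 fold change -0.28, limma adjusted p = 0.172).

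MRPS36 was next, although its symbol misplaces it. Its protein is now assigned to the 2-oxoglutarate dehydrogenase complex of the citric acid cycle and is not seen in structures of the mitoribosome. It stood at 9.946 FPKM in siE2F1, against 14.61 FPKM in control 0 and 15.39 FPKM in control 1, so the groups did not overlap. The log2 fold change was -0.55 (SE 0.0695), with a limma adjusted p of 0.111 over all genes and of 0.0392 without small RNA genes. RefSeq lists 6 pseudogenes of MRPS36, and 40 of the 75 members have at least 1, with 96 in all. How far they share reads in these libraries was not tested.

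Members of the large subunit's stalk and its base did not all lie on the same side of the controls. The stalk is the arm that recruits translation factors, and MRPL12 is its repeated protein. MRPL12 stood at 75.71 FPKM in siE2F1, against 91.78 FPKM in control 0 and 109.4 FPKM in control 1. The siE2F1 value was the lowest, but the controls themselves lay 0.25 log2 units apart, nearly as far as siE2F1 lay from the nearer one (-0.27). MRPL11, of the stalk base, stood at 16.40 FPKM in siE2F1, against 19.58 and 22.48 FPKM in control 0 and control 1. MRPL10, which holds MRPL12 to the ribosome and was picked for mention once its values were known, stood at 17.95 FPKM in siE2F1, against 18.74 and 16.85 FPKM in control 0 and control 1. MRPL12 and MRPL11 were thus lowest in siE2F1 (log2 fold changes -0.40 and -0.34, limma adjusted p = 0.219 and 0.208), while MRPL10 lay between the controls (log2 fold change 0.01).

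The other large subunit members far below the controls come from several places in the particle. MRPL23, near the tunnel exit, stood at 56.22 FPKM in siE2F1, against 68.83 and 74.92 FPKM in control 0 and control 1. MRPL48, of the central protuberance, stood at 21.81 FPKM in siE2F1, against 26.88 and 29.97 FPKM in the controls. MRPL49, a protein added in mitochondria, stood at 53.11 FPKM in siE2F1, against 65.22 and 64.78 FPKM in the controls. For each of the 3 the siE2F1 library was below both controls, and for MRPL49 the controls nearly coincided. Their log2 fold changes were -0.35, -0.37 and -0.29, with limma adjusted p-values of 0.154, 0.164 and 0.135. MRPL35, which has a bacterial counterpart, stood at 24.19 FPKM in siE2F1, against 28.04 and 28.82 FPKM in the controls. MRPL41, a mitochondrial addition, stood at 100.6 FPKM in siE2F1, against 116.4 and 118.8 FPKM in the controls. Both lay 0.21 log2 units below the nearer control and neither passed (limma adjusted p = 0.168 and 0.173).

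In the small subunit 3 proper ribosomal proteins belonged to the 12 members with the lowest fold changes. MRPS26, a mitochondrial addition, stood at 54.41 FPKM in siE2F1, against 66.95 and 70.92 FPKM in control 0 and control 1. MRPS2, which has a bacterial counterpart, stood at 25.34 FPKM in siE2F1, against 30.80 and 30.32 FPKM in the controls. MRPS18C, 1 of 3 human relatives of a single bacterial protein, stood at 14.28 FPKM in siE2F1, against 17.39 and 17.55 FPKM in the controls. In all 3 the siE2F1 library was the lowest and the controls were close together. Their log2 fold changes were -0.34, -0.26 and -0.27 (limma adjusted p = 0.140, 0.144 and 0.137; without small RNA genes 0.0726, 0.0961 and 0.0893).

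Fewer members stood above both controls, and by less. MRPL30, a large subunit protein with a bacterial counterpart, had the highest fold change, at 27.43 FPKM in siE2F1, against 20.44 FPKM in control 0 and 23.00 FPKM in control 1. MRPS14, of the small subunit, stood at 23.74 FPKM in siE2F1, against 18.97 and 20.36 FPKM in the controls. MRPL32, which is cut to its mature form by a protease of the inner membrane before it joins the large subunit, stood at 68.72 FPKM in siE2F1, against 55.14 and 60.59 FPKM in the controls. In each case control 1 was nearer to siE2F1 than control 0 was. Their log2 fold changes were 0.33, 0.26 and 0.25, and none passed (limma adjusted p = 0.193, 0.180 and 0.229). MRPS21, a small subunit protein with a bacterial counterpart, stood at 152.0 FPKM in siE2F1, against 129.0 and 135.3 FPKM in the controls. MRPL16, of the large subunit, stood at 41.58 FPKM in siE2F1, against 37.02 and 36.26 FPKM in the controls. Neither overlapped the controls, by 0.17 and 0.16 log2 units (limma adjusted p = 0.216 and 0.209). MRPL52, MRPL50 and MRPL33 completed the 8, with log2 fold changes of 0.15, 0.15 and 0.14 and the siE2F1 library 0.07 to 0.08 log2 units above the nearer control.

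**Figure D3:**
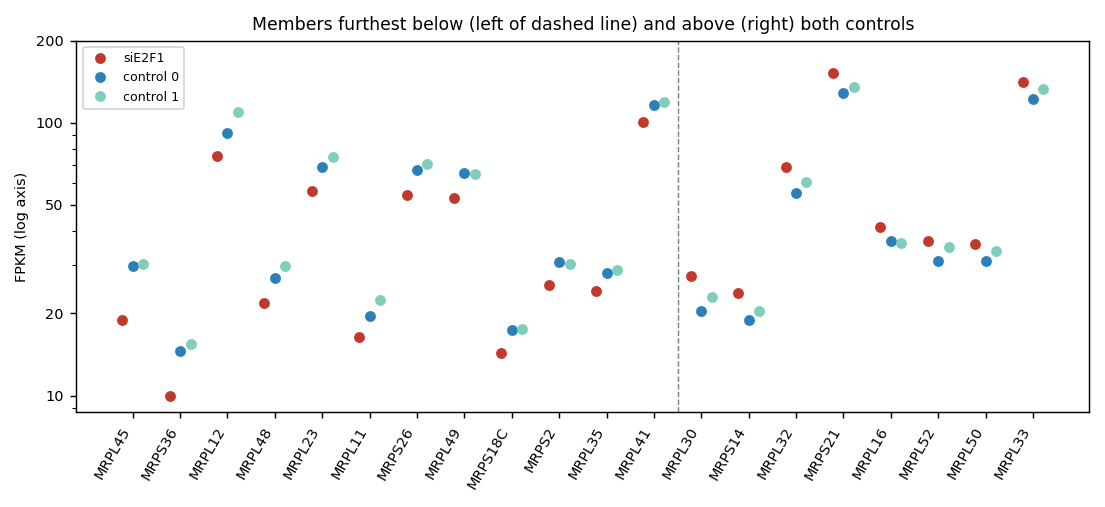
FPKM on a log axis in siE2F1 (red), control 0 (dark blue) and control 1 (light green) for the 12 members with the lowest fold change below both controls and the 8 with the highest above both. The red point is lowest in all 12 on the left and highest in all 8 on the right; MRPL45 and MRPS36 show the widest gap to the nearer control.

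Large and small subunit members were set side by side with no test, since members are not replicates. Below both controls were 24 of 47 large subunit members (51.1%) and 14 of 28 small subunit members, against 39.7% of all genes. Above both were 10 large (21.3%) and 9 small subunit members (32.1%), against 43.7% of all genes. Beyond the controls by more than the gap between them, 18 large subunit members lay lower and 4 higher (38.3% and 8.51%), and 9 of the 28 small subunit members lay lower and 7 higher, against 29.1% and 30.4% of all genes. The median log2 fold change was -0.07 for the large and -0.03 for the small subunit, a difference of -0.032. Control 1 minus control 0 had a median of 0.10 for the large and 0.07 for the small subunit. Against control 0 alone the small subunit median was 0.00 and the large subunit median -0.04. When MRPS30 and MRPS18A, which structures place in the large subunit, were moved there and MRPS36 was left out, the difference was -0.011. MRPS30 stood at 18.65 FPKM in siE2F1, against 18.18 and 20.13 FPKM in the controls, and MRPS18A at 32.59 FPKM in siE2F1, against 29.38 and 31.41 FPKM in the controls. MRPS18A, a relative of MRPS18C, was thus just above both controls where MRPS18C was below both; MRPS18B is not analysed here.

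Summed over members, the large subunit came to 2353 FPKM in siE2F1, against 2429 and 2573 FPKM in control 0 and control 1. The small subunit came to 1405 FPKM in siE2F1, against 1401 and 1466 FPKM in the controls. The large subunit sum was below both controls and the small subunit sum between them. The ratio of the sums was 1.68 in siE2F1, against 1.73 and 1.76 in the controls. Proteins with and without bacterial counterparts, 47 and 28 members, had medians of -0.04 and -0.03. Below both controls were 25 of the 47 (53.2%) and 13 of the 28 (46.4%), against 39.7% of all genes.

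Levels of the members spanned a wide range in each library, on the FPKM scale that corrects for length. MRPL51, a mitochondrial addition to the large subunit, was the highest, at 188.2 FPKM in siE2F1, against 214.8 and 210.9 FPKM in the controls. MRPL20, which has a bacterial counterpart, followed at 161.3 FPKM in siE2F1, against 167.7 and 183.2 FPKM in the controls, with MRPS21 after it. MRPL22, a protein of the tunnel wall, was the lowest, at 6.976 FPKM in siE2F1, against 6.503 and 7.596 FPKM in the controls. MRPL19 was next lowest, at 12.44 FPKM in siE2F1, against 12.41 and 12.68 FPKM in the controls, with MRPS36 after it. The siE2F1 library lay between the controls for MRPL22 and MRPL19 and below both for MRPL51 and MRPL20 (limma adjusted p = 0.222 and 0.457). The median member stood at 38.4 FPKM in siE2F1, against 37.7 and 40.6 FPKM in the controls.

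Of 7 mitoribosomal proteins that carry other symbols, 3 lay below both controls and 3 above (42.9% each, against 39.7% and 43.7% of all genes). AURKAIP1, of the small subunit, stood at 85.58 FPKM in siE2F1, against 112.6 FPKM in control 0 and 127.0 FPKM in control 1. Its log2 fold change of -0.48 lies between those of MRPS36 and MRPL12 (limma adjusted p = 0.143; 0.0615 without small RNA genes). ICT1, a peptidyl-tRNA hydrolase built into the large subunit, stood at 36.53 FPKM in siE2F1, against 39.30 and 43.39 FPKM in the controls. GADD45GIP1, of the large subunit, stood at 68.46 FPKM in siE2F1, against 69.42 and 86.51 FPKM in the controls, with the controls far apart. The small subunit proteins DAP3 and PTCD3 lay above both controls (log2 fold changes 0.09 and 0.16), as did MRP63 of the large subunit (0.08), and CHCHD1 lay between them (-0.01).

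The machinery around the mitoribosome gave a few single genes with log2 fold changes near those of MRPL45 and MRPS36, and limma over the whole table called 0 of its genes. The counts for these lists stand against 39.7% of all genes below and 43.7% above both controls, and 6.36% called lower and 4.17% higher without small RNA genes. Of 22 assembly factors 13 lay below both controls (59.1%) and 7 above (31.8%; median -0.07), with 3 called lower and 0 higher without small RNA genes. NSUN4, a methyltransferase of the small subunit's RNA that also joins the subunits, stood at 6.469 FPKM in siE2F1, against 10.59 and 10.52 FPKM in the controls. FTSJ2, a methyltransferase of the large subunit's RNA, stood at 17.53 FPKM in siE2F1, against 24.93 and 25.14 FPKM in the controls. MTERFD2, the partner of NSUN4, stood at 37.08 FPKM in siE2F1, against 50.50 and 49.91 FPKM in the controls. These 3 are the called ones, with log2 fold changes of -0.63, -0.49 and -0.43 (limma adjusted p = 0.0353, 0.0394 and 0.0439 without small RNA genes, and 0.111, 0.111 and 0.112 over all genes).

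Among 10 translation factors 5 were below both controls and 3 above (median -0.01), against the same 39.7% and 43.7%. TSFM, the exchange factor of the elongation factor TUFM, stood at 17.45 FPKM in siE2F1, against 26.10 and 26.67 FPKM in the controls (log2 fold change -0.57, limma adjusted p = 0.111; 0.0365 without small RNA genes). The elongation factor GFM1 and the recycling factor MRRF had log2 fold changes of -0.25 and -0.23. Of 16 mitochondrial aminoacyl-tRNA synthetases 6 were below and 6 above both controls (37.5% each; median -0.01), with the leucyl enzyme LARS2 at -0.51 (limma adjusted p = 0.111; 0.0396 without small RNA genes), the histidyl enzyme HARS2 at 0.27 and the seryl enzyme SARS2 at -0.16. Of 18 genes for the copying and expression of mitochondrial DNA 10 were below (55.6%) and 4 above both controls (22.2%; median -0.07). C10orf2, the mitochondrial helicase Twinkle, stood at 3.513 FPKM in siE2F1, against 6.520 and 5.761 FPKM in the controls (log2 fold change -0.66, limma adjusted p = 0.114; 0.0403 without small RNA genes). TRMT10C, a subunit of mitochondrial RNase P, and MTPAP, the poly(A) polymerase, stood at -0.42 and -0.36. The respiratory genes of mitochondrial DNA itself are not analysed here.

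**Figure D4:**
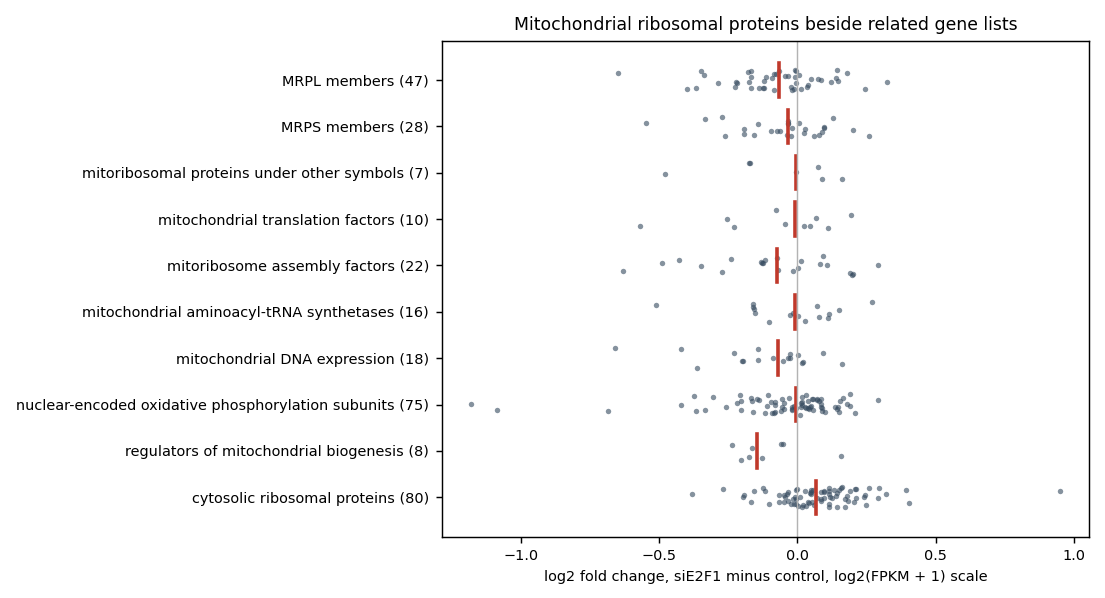
Log2 fold change, siE2F1 against control, of each tested gene (points) and the median (red bar) for large and small subunit members and for the related lists, with the number of genes in brackets. Medians run from -0.14 for the regulators of mitochondrial biogenesis to 0.07 for cytosolic ribosomal proteins, and single genes of oxidative phosphorylation reach -1.18.

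The nuclear subunits of oxidative phosphorylation, 75 genes, had 30 below (40.0%, against 39.7% of all genes) and 24 above both controls (32.0%, against 43.7%), with a median of -0.01. Without small RNA genes 4 of them were called lower and 0 higher, where 6.36% of all genes were called lower and 4.17% higher. COX7A2, of cytochrome oxidase, stood at 94.00 FPKM in siE2F1, against 209.3 and 219.5 FPKM in the controls, a wider gap than that of any of the 75 mitochondrial ribosomal protein genes (log2 fold change -1.18, limma adjusted p = 0.111; 0.0221 without small RNA genes). ATP5I, of the ATP synthase, and NDUFA5, of complex I, stood at -1.09 and -0.68. Of 8 regulators of mitochondrial biogenesis 6 were below and 1 above both controls (median -0.14; over all genes 39.7% and 43.7%), with GABPB1 at -0.23, ESRRA at -0.20 and PPARGC1B at -0.17, and 0 called under either fit. The 80 tested cytosolic ribosomal protein genes had 15 below (18.8%, against 39.7% of all genes) and 41 above both controls (51.2%, against 43.7%), with a median of 0.07; of the mitochondrial members 25.3% were above both. No test of that difference was made. Without small RNA genes 1 of these 80 was called lower and 2 higher, against 6.36% and 4.17% of all genes. RPL21 and RPS27L, with log2 fold changes of 0.95 and 0.39, were those called higher. RPS29, at 0.40, was not called. The RPL21 row stood at only 13.51 FPKM in siE2F1, against 6.572 and 6.447 FPKM in the controls. The median of the list was 941 FPKM in siE2F1, against 903 and 928 FPKM in the controls.

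Promoter windows were found for 67 of the 75 members and searched on both strands for 5 motifs. The E2F motif was TTTCCCGC, TTTCGCGC, TTTGCCGC or TTTGGCGC, the ETS motif CCGGAAGT, the NRF1 motif CGCANGCGC, the E-box CACGTG and the YY1 motif AAGATGGCG; a window can match several. An E2F match stood in 5 member windows (7.46%), those of MRPL18, MRPL37, MRPL42, MRPL46 and MRPS7, against 3.33% of all 27305 windows and 5.53% of the windows of tested genes. Of these 5, 3 lay below both controls, against 31 of the 62 members without a match, with medians of -0.04 and -0.03. A YY1 match stood in 12 (17.9%), against 1.85% of all windows and 4.32% of those of tested genes. Of these 12, 2 lay below both controls, against 32 of the 55 members without the match, with medians of 0.03 and -0.07. An ETS match stood in 11 (16.4%, against 4.44% of all windows and 9.50% of those of tested genes), and 8 of the 11 lay below both controls, against 26 of the 56 members without it (medians -0.12 and -0.03). An E-box stood in 7 (10.4%, against 7.43% and 10.6%), with 5 below both controls, against 29 of the 60 members without it (medians -0.27 and -0.03). An NRF1 match stood in 10 (14.9%, against 8.05% and 15.8%), with 5 below both controls, against 29 of the 57 members without it (medians -0.03 for both). Over all genes tested, 39.7% lay below both controls. The YY1 transcript itself stood at 30.18 FPKM in siE2F1, against 32.06 and 34.01 FPKM in the controls. These are matches of letters, seen after the values were known and given with no test.

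Several of these genes start beside a gene on the opposite strand. Within 1000 bases upstream 20 of the 67 members had such a start, and 13 pairs had both genes tested. Both genes were below both controls in 5 pairs, both above in 2, and on opposite sides in 3. Over all genes tested, 39.7% lay below both controls and 43.7% above both. The same counts were not made for other gene pairs, so no pattern is read from these. MRPL27, shown above with its pair of ETS matches, starts 45 bases from EME1, a subunit of a nuclease that cuts branched DNA. MRPL27 stood at 59.81 FPKM in siE2F1, against 66.24 and 68.21 FPKM in the controls, and EME1 at 6.07 FPKM in siE2F1, against 9.05 and 8.39 FPKM in the controls. MRPL51 starts 840 bases from NCAPD2, a condensin subunit, which stood at 24.7 FPKM in siE2F1, against 38.0 and 32.2 FPKM in the controls. In both pairs the partner was further below the controls than the ribosomal gene. Log2 fold changes were -0.46 and -0.17 for EME1 and MRPL27, and -0.48 and -0.18 for NCAPD2 and MRPL51. Neither EME1 nor NCAPD2 passed limma over all genes tested. MRPS12 and its partner SARS2, the synthetase named above, both stood at -0.16. MRPL46 and MRPS11, a large and a small subunit gene 320 bases apart, both lay between the controls, each with a log2 fold change of -0.02. MRPL30 and its partner MITD1 were both above both controls, MRPL30 by more (log2 fold changes 0.33 and 0.05). MRPL32 lay above both controls and its partner, the proteasome gene PSMA2, below both (log2 fold changes 0.25 and -0.06). Genes named in this paragraph and the one before it were picked by their position or motif or, for YY1, by the motif's name, after values were known.

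**Figure D5:**
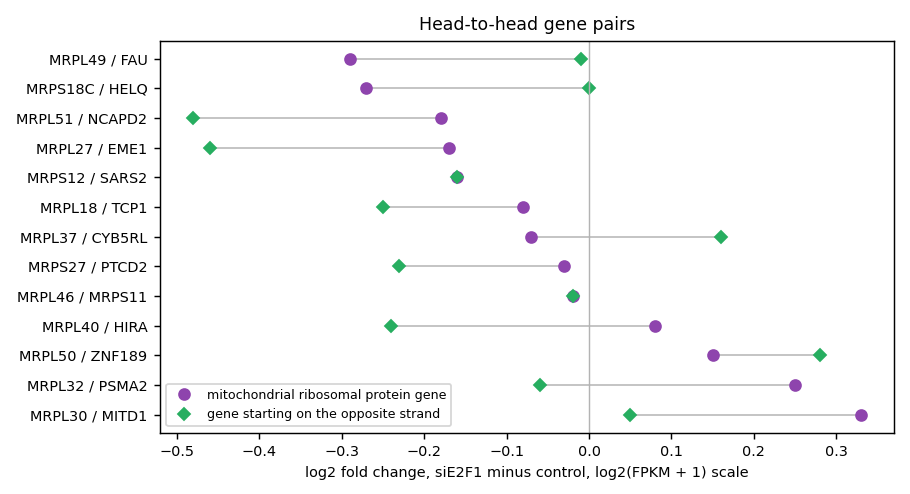
Log2 fold change, siE2F1 against control, of the mitochondrial ribosomal protein gene (circle) and of the gene that starts on the opposite strand within 1000 bases (diamond) in the 13 pairs with both genes tested; for MRPL46 and MRPS11 both are mitochondrial ribosomal protein genes. The diamonds of NCAPD2 and EME1 lie furthest left, at -0.48 and -0.46.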

How the data were processed

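RNA sequencing of LNCaP-abl cells gave 1 siE2F1 and 2 control libraries, prepared, per the labels' protocols, with Illumina's TruSeq RNA kit v2; groups and control numbers come from the sample titles. The authors deposited 1 log2 FPKM value per gene and library. Genome build hg19, Cufflinks 2.0.2 and TopHat2 2.0.4 are listed in the submitters' processing notes; annotation and further scaling are not stated. The lowest deposited value equals log2 of 0.1, so FPKM was taken as 2 to the deposited value minus 0.1, which would be 0.1 too low if the authors set a minimum instead of adding it. Sorted deposited values of any 2 libraries differ by at most 0.0653; quantile normalization gives such values and would hide any shift common to most genes. At most 0.199% of genes agreed within 1e-09 between any 2 libraries, values at the minimum aside, so no library was taken for a copy of another. The kit does not mark strand, so overlapping genes cannot be told apart.

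Genes that averaged 1 FPKM or more over the libraries entered the test on log2(FPKM + 1), which understates changes of low genes, with limma 3.58.1 in R 4.3.3 (mean-variance trend, two-sided, Benjamini-Hochberg over all genes tested, threshold 0.05). The spread comes from the 2 controls, 1 residual degree of freedom per gene, and siE2F1 is assumed to vary like them. On 10 simulated sets the fit over 14401 genes recovered 0.100% of 2-fold and 18.1% of 4-fold decreases, and the fit over the 13928 genes left without small RNA genes (SNOR, SCARNA, MIR and RNU names, host genes kept) 88.4% and 99.9%, with 7.61% and 7.42% of calls false. The changed genes lay well above the filter. In each set 100 genes were lowered 2-fold and 100 were lowered 4-fold, with noise drawn from the fit's own prior and alike in all libraries. In the data 28.4% of genes had an unadjusted limma p under 0.05, so recovery and false calls may differ there. The furthest member had a log2 fold change of -0.65, less than 2-fold, so these rates do not cover the members. A count of genes below or above both controls, with or without a margin of 0.3 log2 units, is a description with no test.

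The members, the related lists and the tests were chosen with earlier results of these data known. Named are E2F1, the 12 lowest and 8 highest members outside both controls, the 3 highest and 3 lowest in level, the symbols that cross subunits with the MRPS18 relatives, all mitoribosomal proteins under other symbols, and up to 3 genes with the largest change outside both controls from each further list. Alternatives were a pseudocount of 0.1, no filter, a mean of at least 5 FPKM, no small RNA genes, equal total FPKM, no trend, each control left out, and subunits by structure. Totals were made equal over genes other than small RNA genes. Promoter windows and gene neighbours are from RefSeq (GRCh38.p14), matched by symbol or, for MRPS36, by synonym.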

Additional observations from a re-analysis of the deposited data

How the results depend on the processing

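No paired analysis was possible because there is a single siE2F1 library. Over the 8 alternatives to the fit, 23 of the 26 named members kept the sign of their log2 fold change; MRPL22, MRPL19 and MRPS30, all within 0.04 of 0, did not. MRPL45 ranged from -0.67 to -0.64 and MRPS36 from -0.59 to -0.51, and both passed limma only without small RNA genes, where 2 members were called lower; their adjusted p ranged from 0.0350 to 0.188 and from 0.0392 to 0.188. With equal total FPKM over genes other than small RNA genes, 4 members lay at least 0.3 log2 units below both controls, against 2. Leaving out a control gave a median over members of -0.093 to -0.016, with 2 to 8 members at least 0.3 below and 0 to 3 above the remaining control. Against control 0 alone 39 members lay below and 36 above, and against control 1 alone 55 lay below and 20 above. The matching shares of all genes were not counted. The small subunit median was -0.057 to 0.004 and the large minus small difference -0.051 to -0.048; by structure this difference was -0.011. The value without control 0 is the lower one for each median, and these are values with no test. With 1 siE2F1 library and unknown depth, differences of this size cannot be set against sampling error.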

Other observations

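A few rows named after these genes but left out as pseudogenes or antisense genes were also listed. MRPL42P5 stood at 3.791 FPKM in siE2F1, against 3.026 and 3.392 FPKM in control 0 and control 1, above both as MRPL42 was (log2 fold changes 0.19 and 0.08). MRPS31P5 was at 0.003252 FPKM in siE2F1, against 0.01630 and 2.328 FPKM in the controls, so the controls disagreed widely. MRPL23-AS1 was listed at 0 in siE2F1 and at 0.01099 and 0.01334 FPKM in the controls.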
